A study of Gallus gallus with 6 samples.

Results

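The CHIR genes of the chicken encode immunoglobulin-like receptors of leukocytes, and their transcripts were followed here in the B cell line DT40 with and without the transcription factor Pax5. The members were all probe sets of the array whose annotated gene symbol begins with CHIR, also where a probe set carries several symbols. There were 12 such probe sets of 38439 tested, 10 with a single symbol and 2 with several. They name 6 genes. CHIR-A2 has 4 probe sets of its own, CHIR-IG1-5 has 3, CHIR-B3 has 2 and CHIR-B6 has 1, while CHIR-B4 shares a probe set with CHIR-B6 and CHIR-AB-502 shares another with CHIR-IG1-5. The family was selected on the rise of CHIR-IG1-5 in the same contrast, so its differences between the groups are a description. Where a CHIR probe set is termed called, this label of the fit over the whole array only sorts the probe sets and tests nothing about the family.

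CHIR receptors sit at the cell surface and read ligands through extracellular immunoglobulin domains. The family is related to the leukocyte and killer cell immunoglobulin-like receptors of mammals. Receptors of the A type have a short tail and pass an activating signal through an adaptor such as the Fc receptor gamma chain, encoded by FCER1G. Receptors of the B type have a long tail with inhibitory tyrosine motifs, and those of the AB type combine both features. In mammals the inhibitory motifs of related receptors recruit the phosphatases encoded by PTPN6, PTPN11 and INPP5D. The gene copies resemble each other closely, and array probes can hybridise with several of them. Which copies contributed to a given signal was not tested.

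DT40 is a lymphoma line of the bursa of Fabricius, used because its genes are readily replaced by homologous recombination. Wild-type DT40 cells (3 samples) were compared with Pax5-/- DT40 cells (3 samples), in which the PAX5 gene had been targeted with a Pax5-neo and a Pax5-bsr construct by electroporation and stable transfectants had been selected. Nothing in the sources used here says whether the 3 Pax5-deficient samples came from more than 1 clone, and effects of transfection and selection cannot be told apart from those of the loss of Pax5. They are described as biological replicates, but nothing says that they were separate cultures, so errors apply to these samples only. The errors combine the spread of each probe set between samples with that over the whole array.

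Each sample was read on an Affymetrix chicken array, and values are log2 expression after RMA. The background of an array was taken as the level that 95% of its 689 virus-sequence probe sets do not exceed, and lay between 3.78 and 3.93. The targeted gene has 4 probe sets. The dimmer of the 2 PAX5 probe sets above background read 4.55, 4.41 and 4.30 in the wild-type samples and 3.86, 3.55 and 3.34 in the Pax5-deficient ones, which are all at background, a fall of at least 1.47-fold. With background at the 99% point instead, as used below, its average in wild type exceeds all of these wild-type values, and the bound may not hold. The brighter one had a difference of 0.24 ± 0.09 (SE), which did not pass. The remaining pair of PAX5 probe sets was at background in every sample. The sources used here do not place these probes relative to the replaced part. Of 9 measured B cell markers, all 9 were above background in all 6 samples, among them CD79B and the light chain gene IGLL1. Without Pax5, 6 of the 9 were lower and 1 was higher, beside 9.74% and 6.01% of all genes. CD79B fell by 2.29 ± 0.11, and CD72, named after its values were seen, by 4.02 ± 0.12.

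Of the 12 CHIR probe sets, 7 were at a higher level in Pax5-deficient cells and called at the array-wide threshold of limma, and the other 5 were not called. Among all probe sets 3.93% were called higher and 6.7% lower. Since the family was chosen by this contrast, nothing is read from its count or from that share. The differences of the 7 ran from 1.02 to 4.24 on the log2 scale, and every gene with a probe set of its own had at least 1 of them. The median difference of the 12 was 1.09, or 0.45 with values at background replaced by the bound they allow, beside 0.03 for all probe sets. In 8 of the 12 the Pax5-deficient samples all lay above the wild-type samples, a pattern that 14.4% of all probe sets showed.

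**Figure D1:**
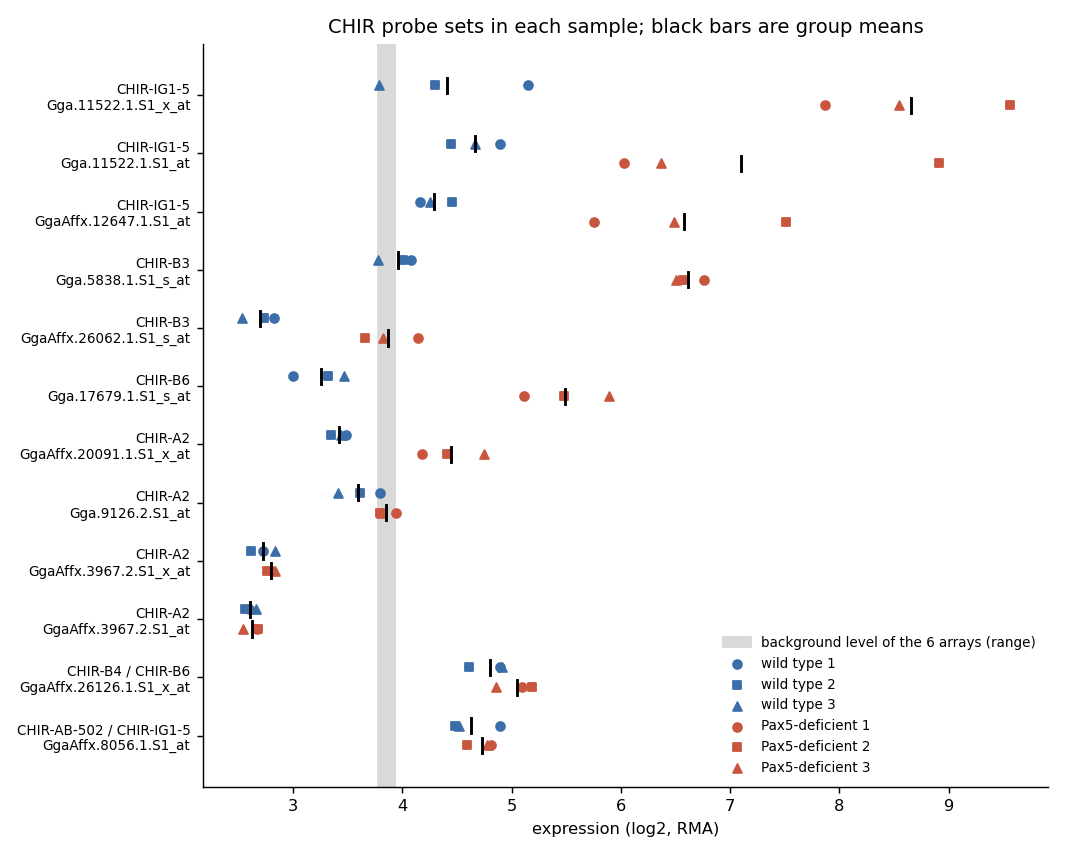
Each row is a CHIR probe set and each point a sample, on the log2 RMA scale, with 3 wild-type samples in blue above 3 Pax5-deficient samples in red. Black bars are group means and the grey band spans the background levels of the 6 arrays; the 3 probe sets of CHIR-IG1-5 reach from 5.75 to 9.56 in the Pax5-deficient samples and from 3.79 to 5.15 in wild type.

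CHIR-IG1-5 gave the largest difference of the family. Its brightest probe set, an _x_at one, read 5.15, 4.30 and 3.79 in wild-type samples 1, 2 and 3, and 7.87, 9.56 and 8.54 in Pax5-deficient samples 1, 2 and 3. The groups were 2.72 apart at their nearest samples, and wild-type sample 3 lay at the edge of its background. The fitted difference was 4.24 ± 0.43 (SE, n = 3 per group), or 18.9-fold, rank 5 among the rises of all probe sets. An _at probe set made for the same target read 4.89, 4.45 and 4.67 in wild type and 6.03, 8.91 and 6.37 without Pax5. Pax5-deficient sample 2 stood far above the other samples of its group there.

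This same-target _at probe set had a difference of 2.43 ± 0.62 (SE), or 5.40-fold, and 1.53 ± 0.15 without Pax5-deficient sample 2. It was no longer called when wild-type sample 1, 2 or 3 or Pax5-deficient sample 3 was left out, with differences of 2.54, 2.32, 2.43 and 2.80, which left 6 called CHIR probe sets in each case. The other _at probe set of CHIR-IG1-5, made for a separate target, read 4.16, 4.46 and 4.25 in wild type and 5.75, 7.51 and 6.49 in Pax5-deficient cells. Its difference was 2.29 ± 0.36, or 4.90-fold. All 3 probe sets of the gene were above background, as defined above, in every wild-type sample. By that definition the transcripts they detect were also measured with Pax5 present. The CHIR-B3 and CHIR-B6 bounds given below at the 99% point put background higher. On average it then exceeds all wild-type values of the separate-target probe set. It also exceeds those of wild-type samples 2 and 3 on the _x_at and the same-target _at probe sets, narrowly for sample 3 on the latter. At that point detection with Pax5 present is not shown for the separate-target probe set, and its fold would be a bound.

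The fourth probe set that names CHIR-IG1-5 also names CHIR-AB-502. This shared _at probe set read 4.89, 4.48 and 4.52 in wild type and 4.81, 4.59 and 4.78 in Pax5-deficient samples. The groups overlapped at a level above background. The difference of 0.10 ± 0.13 had a 95% interval from -0.19 to 0.39, which lies below the intervals of the 3 probe sets of CHIR-IG1-5 alone, the lowest of which starts at 1.02.

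CHIR-B3, named as a B type receptor, had the smallest SE among the called probe sets. Its brighter probe set, an _s_at one, read 4.08, 4.01 and 3.78 in wild type, with 2 of 3 samples above background, and 6.76, 6.57 and 6.50 in Pax5-deficient cells. No Pax5-deficient sample came within 2.41 of a wild-type sample. The difference was 2.65 ± 0.11 (SE, n = 3 per group), or 6.29-fold, rank 24 among all rises. With background at the 99% point of the virus probe sets the fold becomes a bound of at least 3.77. The other _s_at probe set of CHIR-B3 was dim, with 2.83, 2.74 and 2.53 in wild type and 4.14, 3.66 and 3.82 without Pax5. Its fitted difference was 1.17 ± 0.14. Since wild type was at background and only 1 Pax5-deficient sample rose above it, the fold has a bound of at least 1.06. This bound is lost at the 99% point, where the average wild-type background implied by the bound of 3.77 exceeds the Pax5-deficient mean of 3.87.

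CHIR-B6, also of the B type by name, was at background in wild type and above it without Pax5. Its own _s_at probe set read 3.00, 3.32 and 3.47 in the wild-type samples and 5.11, 5.48 and 5.89 in the Pax5-deficient ones. All Pax5-deficient samples were above their background and at least 1.64 above the wild-type samples. The fitted difference was 2.23 ± 0.19 (SE), and the level was at least 3.26-fold higher, or at least 1.74-fold with background at the 99% point. The _x_at probe set shared by CHIR-B4 and CHIR-B6 read 4.89, 4.61 and 4.91 against 5.10, 5.19 and 4.86. These groups overlapped, and the difference of 0.24 ± 0.12 had a 95% interval from -0.03 to 0.52.

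CHIR-A2, named as an activating receptor, was at background in all wild-type samples on its 4 probe sets. Its brightest probe set, an _x_at one, read 3.49, 3.35 and 3.44 in wild type, at background, and 4.18, 4.41 and 4.75 in Pax5-deficient samples, all above background. Its difference was 1.02 ± 0.14 (SE), and the level was at least 1.58-fold higher. The next, an _at probe set, read 3.80, 3.61 and 3.41 in wild type and 3.94, 3.80 and 3.81 without Pax5. The highest wild-type and the lowest Pax5-deficient sample were equal to 2 decimals, and the difference was 0.24 ± 0.11. The remaining CHIR-A2 probe sets, an _x_at and an _at one, were at background in all 6 samples, and so give no fold. Their values ran from 2.54 to 2.84.

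**Figure D2:**
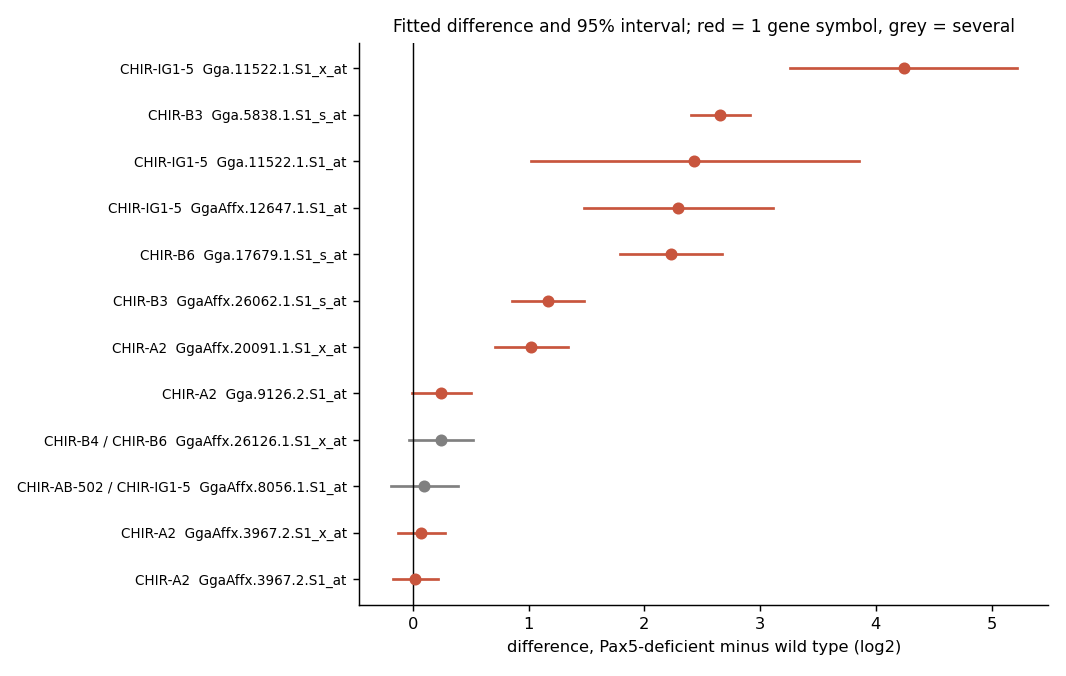
Points are fitted differences on the log2 scale, Pax5-deficient minus wild type, and lines are 95% intervals, with 3 samples per group and the 12 CHIR probe sets ordered by size. The 10 in red name 1 gene and run from 0.02 to 4.24; the 2 in grey name several and lie at 0.10 and 0.24.

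The suffix of a probe set marks known sharing of its probes, but a plain suffix does not assure a single gene here. The probe set that names both CHIR-AB-502 and CHIR-IG1-5 has the plain suffix _at. Affymetrix marks with _s_at a probe set whose probes match several transcripts and with _x_at one that holds probes matching other sequences. Of the 12 CHIR probe sets, 3 are _s_at, 4 are _x_at and 5 have the plain suffix _at. All 3 of the first kind were called, 2 of the second and 2 of the third. The share of each kind called over the whole array was not taken, so nothing is read from these counts. The called probe sets of CHIR-B3, CHIR-B6 and CHIR-A2 all carry a mark of shared probes, and the called pair with the plain suffix belongs to CHIR-IG1-5. Without a plain probe set that was called, a rise at CHIR-B3, CHIR-B6 or CHIR-A2 cannot be told apart from a rise of another copy with the same probe sequences. Which copies contributed to the signals of CHIR-IG1-5 was not tested either.

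The called CHIR probe sets did not peak in the same Pax5-deficient sample. All 3 of CHIR-IG1-5 were highest in sample 2, then 3, then 1, and their departures from the wild-type mean on the same-target _at probe set were 1.36, 4.24 and 1.70 in samples 1, 2 and 3. The span of 2.88 between the highest and lowest sample of that probe set is 7.37-fold. CHIR-B6 and the brightest probe set of CHIR-A2 were highest in sample 3 and lowest in sample 1. The departures of CHIR-B6 were 1.85, 2.22 and 2.63. Both probe sets of CHIR-B3 were highest in sample 1, with departures of 2.81, 2.61 and 2.54 on the brighter one.

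The spread of CHIR-IG1-5 in Pax5-deficient cells was wide for this array. The SD of its 3 probe sets was 0.85, 1.57 and 0.89, each at or above the 99.8th percentile of all probe sets, where the median SD was 0.124. In wild type the SD of the _x_at probe set was 0.68, at the 99.9th percentile, while the _at ones had 0.22 and 0.16. The brighter CHIR-B3 probe set differed from this pattern, with an SD of 0.14 in Pax5-deficient cells, at the 56.7th percentile. The other called CHIR probe sets lay between: CHIR-B6 at the 96.5th, the brightest of CHIR-A2 at the 91.0th and the dimmer of CHIR-B3 at the 85.7th. In a bulk culture, more cells with a transcript and more of it in each cell cannot be told apart.

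**Figure D3:**
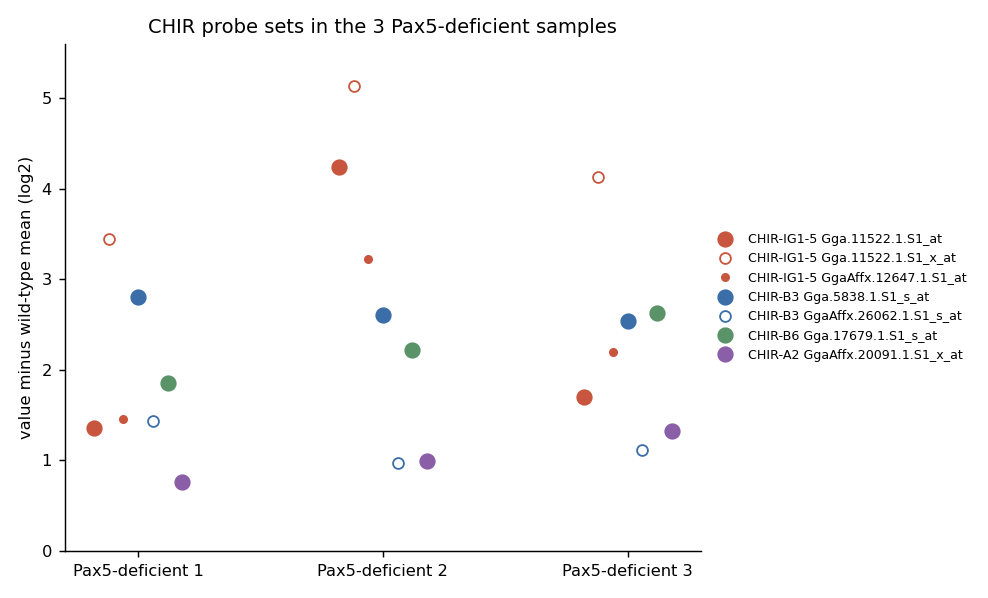
The vertical axis gives the value of each Pax5-deficient sample minus the wild-type mean on the log2 scale, for the 7 called CHIR probe sets, coloured by gene and shifted sideways for legibility. The 3 CHIR-IG1-5 points are highest in sample 2, up to 5.14, while those of CHIR-B3 are highest in sample 1.

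The genes whose profile lay nearest to the brightest CHIR-IG1-5 probe set were found by the root mean square difference over the 6 samples, after the wild-type mean of each was subtracted. They were NDFIP1, an adaptor of ubiquitin ligases, at 0.60 on its brightest probe set (the other 3 differed by 0.44 to 2.78), KCNMB1, a subunit of a calcium-activated potassium channel, at 0.63, LOC419677 at 0.69, TMEM74 at 0.84 and the transcriptional repressor BHLHE41 at 0.88. The probe set of TMEM74 was at background in all wild-type samples and differed by 3.35, while its other probe set differed by 0.94. The median over 13005 genes was 3.05, and the measure mainly picks genes with a rise of like size. KCNMB1 read 4.01, 3.54 and 4.05 in wild type and 8.03, 8.54 and 7.20 without Pax5. Pax5-deficient sample 2 was the highest of its group in all 5 genes. The measure favours this, since the CHIR-IG1-5 probe set used for it was also highest there. On the same measure the _at probe sets of CHIR-IG1-5 were at 1.40 and 1.45, farther from the brightest one than these genes.

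In the reference gene table of GRCg7b, which was used for names and order only, CHIR-IG1-5 is placed on chromosome 16, which also carries the chicken MHC, and the other 5 genes on chromosome 31. The table names 9 CHIR genes, 8 of them on chromosome 31, and 3 have no probe set under their symbol and are not analysed here. Of 55 other measured genes on these chromosomes, 39 on chromosome 16 and 16 on chromosome 31, 3 were higher, 7 were lower and 45 did not pass. Over all 13009 genes 6.01% were higher and 9.74% lower. The median difference of the 55 was 0.01 on the log2 scale. The count of higher genes was 1 without Pax5-deficient sample 1. Left-out samples also lowered the 7 falls, to 4, 3 and 3 without wild-type sample 1, 2 or 3, and to 3 and 4 without Pax5-deficient sample 1 or 3.

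The named falls on these chromosomes were TRIM39.2 (-2.34 ± 0.16, SE), the lipid-presenting molecule CD1B (-1.31 ± 0.10) and LOC427029 (-1.35 ± 0.15). Another probe set of TRIM39.2 did not pass (0.18 ± 0.10). BLB1, an MHC class II beta chain, has 5 probe sets. Its brightest one rose by 0.54 ± 0.10, another pair by 2.69 ± 0.22 and 1.88 ± 0.18, and the rest did not pass. The nearest measured genes before the CHIR genes of chromosome 31 were SLC27A2, a fatty acid transporter, and THAP8. SLC27A2 had a difference of 0.18 ± 0.11, which did not pass. THAP8 rose by 0.51 ± 0.12 (limma adjusted p = 0.0235), a call lost without Pax5-deficient sample 1 or 3 (0.0568 and 0.0664). No measured gene followed the CHIR genes there, and none shared the short ordered stretch that holds CHIR-IG1-5.

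Signalling partners of activating and inhibitory immunoglobulin-like receptors were read next, from a list of adaptors, kinases and phosphatases. Of 34 measured genes 2 were higher, 13 were lower and 19 did not pass, where 6.01% of all genes were higher and 9.74% lower, with a median difference of -0.06 on the log2 scale beside 0.03 over all probe sets. FCER1G, the adaptor of activating receptors, read 4.98, 4.68 and 4.65 in wild type and 4.65, 4.54 and 5.02 in Pax5-deficient cells. The groups overlapped, and the difference was -0.04 ± 0.14 (SE, n = 3 per group; limma adjusted p = 0.928), with a 95% interval from -0.36 to 0.29.

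The 2 genes that rose, named after their values were seen, were CD247 and PLCG1. CD247, the zeta chain with activation motifs known from T and NK cell receptors, read 4.50, 4.42 and 4.35 in wild type and 6.24, 7.44 and 6.39 without Pax5. Pax5-deficient sample 2 was again the highest. The rise was 2.27 ± 0.27 on the log2 scale, or 4.82-fold (limma adjusted p = 0.000791). PLCG1, a phospholipase, rose by 0.35 ± 0.08, and its call was lost when any single sample was left out (limma adjusted p = 0.0511 to 0.0866), with a variance trend (0.082) and after averaging over its probe sets (0.169).

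The named partners that fell were 3 kinases and an adaptor. PRKCD, a protein kinase C, read 7.55, 7.93 and 7.85 in wild type and 4.04, 3.66 and 3.90 in Pax5-deficient cells. It fell by 3.91 ± 0.13 on the log2 scale (limma adjusted p = 6.63e-07). LYN, the Src family kinase that phosphorylates both kinds of motif, fell by 1.70 ± 0.11 and BTK by 0.87 ± 0.09, and the adaptor NCK1 fell by 0.96 ± 0.11. SYK, which binds phosphorylated activation motifs, had a difference of 0.29 ± 0.11 that did not pass. FYN, another Src family kinase, named after its values were seen, had a difference of 0.59 ± 0.17 that did not pass (limma adjusted p = 0.0669), but it passed as higher with a variance trend (0.0486) and when its probe sets were averaged (0.0372).

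The phosphatases of inhibitory receptors did not pass on their brightest probe sets. PTPN6 had a difference of -0.28 ± 0.11 (SE), PTPN11 of 0.16 ± 0.20 and INPP5D of 0.24 ± 0.15, with limma adjusted p of 0.171, 0.713 and 0.401. Another probe set of INPP5D rose by 0.63 ± 0.12 (limma adjusted p = 0.0118), and the brightest passed without Pax5-deficient sample 1. The levels of PTPN6, 8.73, 8.79 and 8.62 in wild type and 8.37, 8.30 and 8.63 without Pax5, were well above background in both groups.

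**Figure D4:**
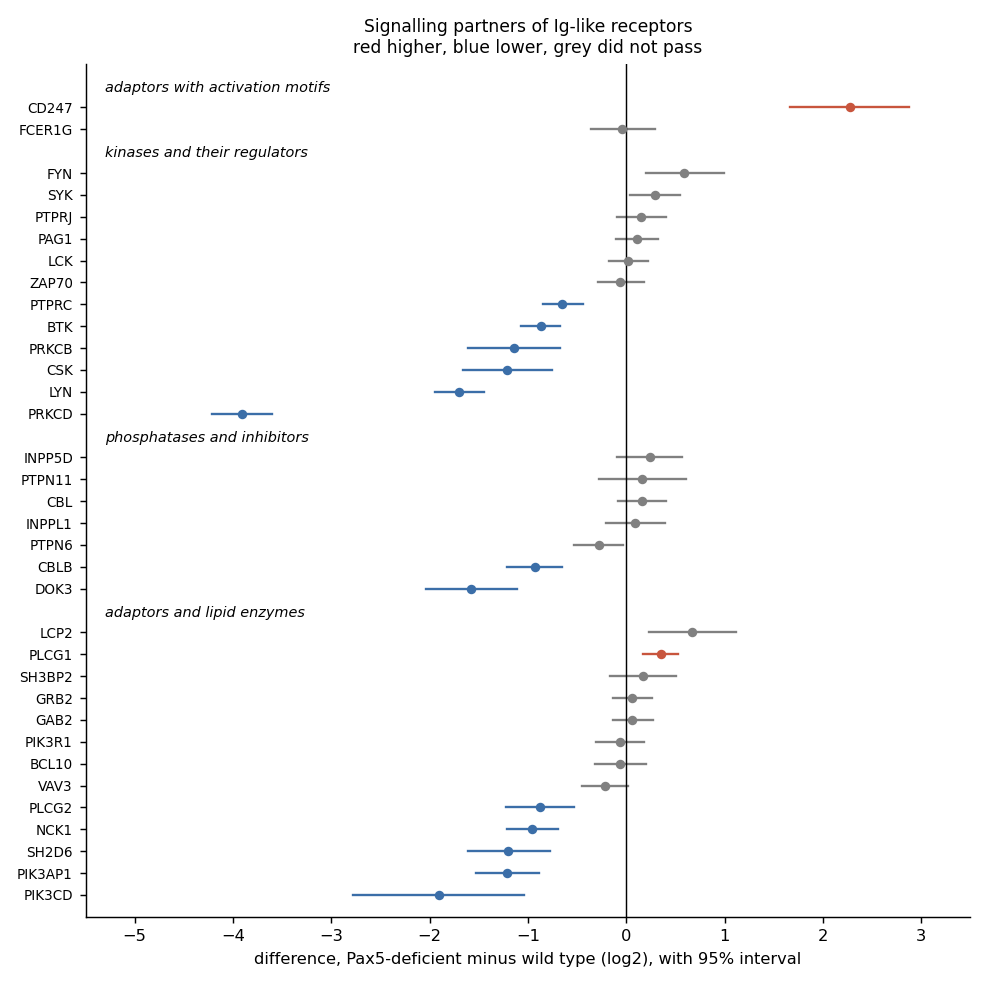
Points are differences on the log2 scale, Pax5-deficient minus wild type, for the 34 measured signalling partners by role, with 95% intervals and 3 samples per group. CD247 stands apart on the higher side at 2.27 and PRKCD on the lower side at -3.91, while FCER1G and the phosphatases PTPN6, PTPN11 and INPP5D are grey because they did not pass.

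Most of the other immunoglobulin superfamily receptors of leukocytes did not pass. Of 26 measured genes 1 was higher, 4 were lower and 21 did not pass, beside 6.01% and 9.74% of all genes, and 10 were at background in all 6 samples. TIMD4, a phosphatidylserine receptor, read 4.26, 4.51 and 4.85 in wild type and 6.10, 5.54 and 5.80 without Pax5. It rose by 1.27 ± 0.18 on the log2 scale (SE; limma adjusted p = 0.00208), while its other probe set did not pass (0.22 ± 0.14). EMB, an adhesion molecule, fell by 5.14 ± 0.42, CD79B, which transmits signals of the surface antibody, by 2.29 ± 0.11 and the inhibitory receptor BTLA by 1.39 ± 0.13. Without Pax5-deficient sample 1 the lower count was 7. Differences between these receptors and the CHIR genes were not tested.

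Markers of other cells were read beside the CHIR values, since CHIR receptors are also known from myeloid cells, NK cells and thrombocytes. Marker counts stand beside the 6.01% of all genes called higher and the 9.74% called lower. Of 9 measured myeloid markers none was higher and 1, SPI1, was lower, with a median difference of 0.10. CYBB, named after its values were seen, did not pass (0.54 ± 0.30). It read 5.41, 6.72 and 5.49 in Pax5-deficient samples 1, 2 and 3, and 5.47, 5.31 and 5.22 in wild type. In all 6 samples 6 of the myeloid markers were above background, and MARCO, LYZ and TLR4 were at background. Their summed log2 level was 43.5 to 44.3 in wild type and 42.9 to 44.5 in Pax5-deficient samples. Of 11 T and NK lineage markers 2 were higher, CD247 and CD8A, and 1 was lower, CD3E, with sums of 51.7 to 52.4 and 53.4 to 54.3. The median difference of the 11 was -0.04 on the log2 scale, beside 2.27 for CD247, so the higher sums are no shift of the whole list. In all 6 samples 6 of the 11 were above background, among them CD3D, with means of 11.48 in wild type and 11.19 without Pax5. CD4, CD28 and GATA3 of that list were at background throughout. The CD8A call was lost without any 1 wild-type sample or Pax5-deficient sample 3, and the CD3E call without any 1 sample but Pax5-deficient sample 2 (limma adjusted p = 0.0544 to 0.14 where lost). Averaged over its 2 probe sets, CD8A rose by 0.87 ± 0.08 (limma adjusted p = 0.000257), beside 0.52 ± 0.12 on the brightest.

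None of 7 erythroid and thrombocyte markers passed. In all 6 samples 2 of them were above background and 4, GP9, TAL1, THBS1 and CD36, were at background. The sums of the 7 markers were 27.3 to 27.8 in wild type and 28.0 to 28.4 in Pax5-deficient cells, with a median difference of 0.07. Of 8 fibroblast and stromal markers 1 was higher, COL1A2, by 0.50 ± 0.10, a call lost without wild-type sample 2 (limma adjusted p = 0.0511). Averaged over its 8 probe sets, COL1A2 rose by 1.31 ± 0.09 (limma adjusted p = 5.5e-05). Sums of the 8 were 34.0 to 35.3 and 34.9 to 36.6. In all 6 samples 5 of them were above background, and DCN and LUM were at background. The part of other cells in the CHIR values was not tested. Of the 9 B cell markers 6 were lower and 1, TNFRSF13B, was higher, and their sums were 87.3 to 88.2 in wild type and 78.8 to 79.4 without Pax5.

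Over the whole array 1509 probe sets were higher and 2576 lower, and of 13009 genes 782 were higher and 1267 lower (1059 and 1138 after quantile normalization). Counts of higher probe sets were 909, 868 and 952 without wild-type sample 1, 2 or 3, and of higher genes 497, 446 and 513. Without wild-type sample 2 the lower counts were 1622 and 840.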

How the data were processed

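Total RNA of 6 DT40 samples was hybridised to Affymetrix chicken arrays. The deposited values are log2 expression, made by the authors with RMA, per the submitters' processing notes, and the software version is not stated there. RMA can shrink differences of dim probe sets, and how far this affected the folds here was not tested. No depth applies to arrays, and their number limits the precision. The table held 38535 probe sets. The 96 array controls were left out.

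Gene names came from the platform annotation, updated by Entrez ID (0 symbols changed). Of the tested probe sets 27168 had 1 symbol, 177 several and 11094 none. For a listed gene the probe set of highest mean over the 6 samples stands for the gene.

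All 38439 probe sets were fitted in R 4.3.3 with limma 3.58.1 (group as the only term, eBayes, two-sided) and Benjamini-Hochberg adjustment over all of them, with a threshold of 0.05. Errors are limma's moderated SE. The fit was checked on simulated data. An exact permutation test of 3 against 3 samples cannot go below 0.1.

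A value is at background if it does not exceed the 95% point of the virus probe sets of its array. A group at background in all samples gives a bound: each of its values below background was raised to it, and their mean was set against that of the other group.

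The CHIR probe sets are all given. From each list the 4 genes with the smallest adjusted p, the 5 nearest profiles and the nearest measured neighbours were named. The 6 fixed signalling genes were named where measured, and TYROBP among them was not measured. Others were chosen after their values were seen. BLNK was read under its reference symbol SH2D6. Members, lists and background were chosen with earlier results of these data known. Alternatives were quantile normalization, subtraction of array medians, a variance trend, a filter on dim probe sets, other background points, the mean of probe sets, the replicate number as a block and each sample left out. Plots were drawn with matplotlib 3.10.9.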

Additional observations from a re-analysis of the deposited data

How the results depend on the processing

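The count of higher CHIR probe sets, from which nothing is read, was also 7 after quantile normalization, subtraction of array medians, a variance trend and with the replicate block. It was 5 among probe sets above the median level, where 5 probe sets, 2 of them called, were not fitted. It was 6 to 7 with 1 sample left out. Of the called probe sets 6 kept their call with every sample left out, and the 5 others passed in none of these. Over the array 1991 probe sets were higher after quantile normalization, 1267 after subtraction of array medians and 1468 with a variance trend. With the replicate block, 1523 probe sets were higher and 2593 lower, and 3 signalling partners were higher, as with a variance trend. Same-numbered samples had correlations of their deviations of 0.115, 0.0724 and -0.00729, so the numbers were not taken as pairs. The genes of chromosomes 16 and 31 gave 5 higher after quantile normalization, and 4 lower with the mean of probe sets, which gave 7 lower among other immunoglobulin-like receptors. With 1 sample left out, signalling partners gave 1 to 2 higher, chromosome genes 1 to 3 higher and 3 to 5 lower, other receptors 4 to 7 lower, and the array 868 to 1497 higher and 1622 to 2675 lower. FCER1G ran from -0.18 to 0.07, and turned sign in 3 of those, at 0.07, 0.01 and 0.06. With background at the 99% point the bound of CHIR-B6 was 1.74 and the brighter CHIR-B3 probe set was at least 3.77-fold higher. The brightest CHIR-A2 and the dimmer CHIR-B3 probe set keep no bound at that point. The cause was not tested.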
